A study of Mus musculus with 60 samples.

Results

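Translocation junctions in the loci of 4 B-cell transcription factor genes, Pax5, Ebf1, Bach2 and Aff3, were examined in CH12F3 cells, a B-lymphoma line of the mouse that can be induced in culture to switch antibody class. The members are the junctions that fall in a fixed window around each gene in the mm9 build, namely chr4:44530000-44729999 for Pax5, chr11:44420000-44829999 for Ebf1, chr4:32300000-32679999 for Bach2 and chr1:38230000-38729999 for Aff3. These windows held 876 junctions, of 550546 junctions genome-wide (0.159%) and 1219247 junctions in all. Ebf1 had 337 of them, Bach2 210, Aff3 183 and Pax5 146. Genome-wide junctions are those outside the bait chromosome, the mitochondrial genome, chromosome Y and the immunoglobulin loci, and each rate below is the number of a window's junctions per 10000 genome-wide junctions of the same library.

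The junctions come from LAM-HTGTS, a linear-amplification sequencing assay that reads the DNA joined to a break at a fixed bait site. The 60 libraries form 12 groups, all stimulated for 72 h with an antibody to CD40 and the cytokines IL-4 and TGF-β. Cells labelled AID_WT (WT below) received DMSO (5 libraries), tazemetostat (5) or valemetostat (8), and the same 3 agents together with idelalisib (5 libraries each). AID-KO cells received DMSO (5), tazemetostat (4) or valemetostat (3), and Ligase4 KO cells (Lig4-KO below) received each agent (5 libraries each). Tazemetostat and valemetostat inhibit the histone methyltransferase EZH2, and idelalisib inhibits the delta form of PI3 kinase. The labels give no doses, and they do not say whether replicates are separate cultures or how many clones each knockout holds, so the spread between libraries may be technical.

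Pax5 is the factor that holds cells in the B lineage, Ebf1 acts with it to open the B-cell gene programme, Bach2 represses the plasma cell programme in activated B cells, and Aff3 is a nuclear protein of the AF4/FMR2 family that lymphoid cells express. The deaminase AID starts class switching by deaminating cytosines in transcribed switch regions, prefers motifs such as AGCT, and also acts outside the antibody loci, most often near the 5′ ends of transcribed genes. DNA ligase 4 seals breaks in classical end joining, and without it ends are joined by other routes.

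Since the rates at the 5′ ends of the 4 genes are compared below, the 250 bases upstream of a start that RefSeq gives (GRCm38.p6) are shown for each. AGCT, a motif that reads the same on both strands, is in capitals. The Pax5 sequence is from chr4:44710695-44710944 on the minus strand, the Ebf1 sequence from chr11:44617850-44618099 on the plus strand, the Bach2 sequence from chr4:32417185-32417434 on the plus strand and the Aff3 sequence from chr1:38627245-38627494 on the minus strand. These coordinates belong to the later build and cannot be set on the mm9 windows.
Pax5: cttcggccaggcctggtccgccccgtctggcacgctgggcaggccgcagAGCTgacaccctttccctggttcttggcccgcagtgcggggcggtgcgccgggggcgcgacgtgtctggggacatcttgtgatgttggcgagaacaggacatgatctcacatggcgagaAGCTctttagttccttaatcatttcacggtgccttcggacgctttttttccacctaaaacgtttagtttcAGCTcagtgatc
Ebf1: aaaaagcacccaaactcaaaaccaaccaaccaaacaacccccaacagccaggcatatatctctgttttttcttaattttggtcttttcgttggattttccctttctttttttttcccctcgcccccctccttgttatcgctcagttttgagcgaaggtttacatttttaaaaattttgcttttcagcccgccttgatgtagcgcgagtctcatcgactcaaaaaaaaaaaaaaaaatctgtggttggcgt
Bach2: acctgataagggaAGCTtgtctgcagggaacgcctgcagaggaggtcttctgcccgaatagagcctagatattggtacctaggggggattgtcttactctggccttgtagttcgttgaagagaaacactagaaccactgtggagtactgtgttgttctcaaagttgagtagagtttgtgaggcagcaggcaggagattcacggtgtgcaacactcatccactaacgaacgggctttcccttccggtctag
Aff3: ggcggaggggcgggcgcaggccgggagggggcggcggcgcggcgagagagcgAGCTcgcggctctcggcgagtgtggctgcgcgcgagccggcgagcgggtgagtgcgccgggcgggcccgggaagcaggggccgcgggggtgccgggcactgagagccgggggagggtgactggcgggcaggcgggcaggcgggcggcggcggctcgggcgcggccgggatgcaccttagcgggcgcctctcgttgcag
In these stretches AGCT occurs 3 times upstream of Pax5, 0 times upstream of Ebf1 and 1 time each upstream of Bach2 and Aff3. Ebf1 has 2 promoters in the table, of which only 1 is shown and counted here. Of 32851 promoters of that length in the table, 70.4% hold AGCT and 14.0% hold it at least 3 times. The Ebf1 and Aff3 stretches also differ in composition, with 40.0% and 82.0% G or C. The Bach2 promoter in the table starts 51.5% of the way along the gene, whereas those of Pax5, Ebf1 and Aff3 start within the first 1% of it.

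Library depth sets how finely these loci can be read. Libraries outside Lig4-KO held 4450 to 14497 genome-wide junctions and those of Lig4-KO 11269 to 19120. A single junction is therefore worth 2.25 per 10000 in the shallowest library and 0.523 in the deepest, and a count of 0 in the shallowest library allows a rate of up to 6.74 (3 junctions). The 3 treatments of Lig4-KO shared 1 sequencing run that held no other background, and no AID-KO library shared a run with a WT library, so run and background cannot be told apart in those comparisons. Run and treatment cannot be told apart either between valemetostat and DMSO in WT or under idelalisib, nor run and idelalisib in the libraries with DMSO, since each of those groups lay in a different run from the group it is compared with. The AID-KO valemetostat libraries shared a run with 1 of the 5 AID-KO DMSO libraries.

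Per length and over all treatments, Ebf1 was the densest of the 4 loci in WT cells and Pax5 the densest in Lig4-KO cells. The mean density over the 18 WT libraries was 1.35 junctions per 10000 per 100 kb in Ebf1, 1.15 in Bach2, 1.01 in Pax5 and 0.657 in Aff3. The median 400 kb tile of the genome stood at 0.379 in the same libraries and the 99th percentile of tiles at 1.13. Ebf1 and Bach2 thus lay above the 99th percentile in WT, Pax5 lay between the median and that percentile, and Aff3 was 1.74 times the median. In the 15 Lig4-KO libraries Pax5 reached 2.07, Ebf1 1.57, Bach2 0.843 and Aff3 0.640. The order was another with DMSO alone, where Bach2 (1.69) exceeded Ebf1 (1.35) in WT, and Ebf1 (1.64) exceeded Pax5 (1.26) in Lig4-KO. Pax5 in Lig4-KO stood at 2.39 with tazemetostat and 2.55 with valemetostat. In the 12 AID-KO libraries Pax5 stood at 0.463, close to the tile median of 0.389, whereas Ebf1 kept a density of 1.33. The windows are 200 to 500 kb long and the tiles 400 kb, so the percentiles are a description, with no test.

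**Figure D1:**
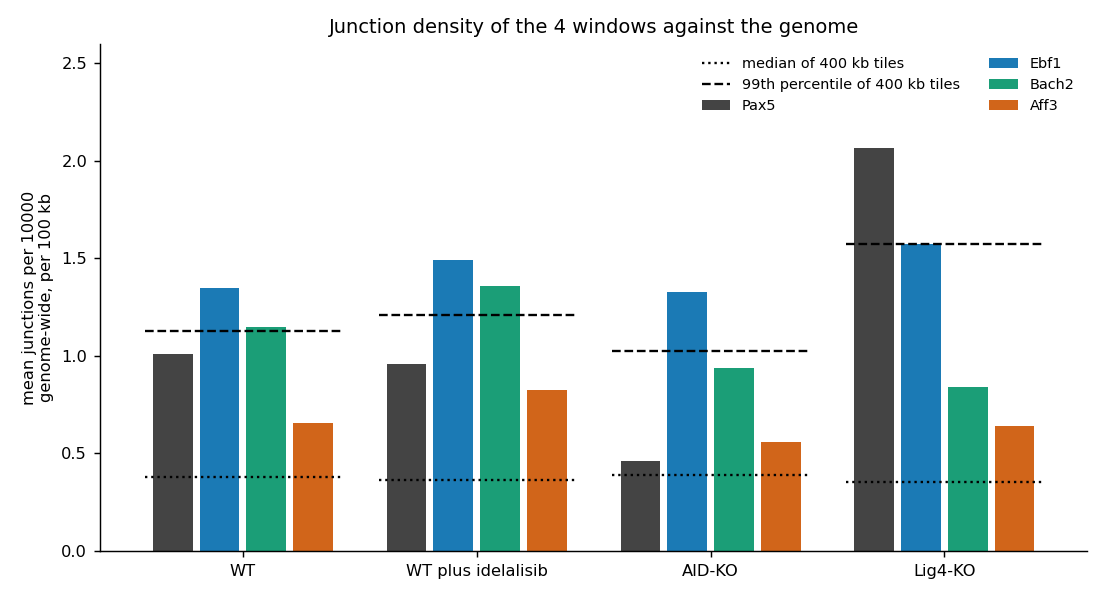
Mean junctions per 10000 genome-wide junctions and per 100 kb (vertical axis) in the 4 windows, over all libraries of each background, with the median (dotted) and 99th percentile (dashed) of 400 kb tiles. Pax5 moves from 0.463 in AID-KO to 2.07 in Lig4-KO, while Ebf1 lies between 1.33 and 1.57 in all 4 backgrounds.

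None of the 4 loci passed the threshold of 0.05 in any of the 12 comparisons of 2 groups. Each comparison was a two-sided exact permutation test of the mean rate, unadjusted, and 0 of 48 tests passed, with p from 0.0629 upward. Of the 400 kb tiles, 5.98% passed between AID-KO and WT with DMSO, 7.35% between Lig4-KO and WT with DMSO, 5.18% between idelalisib and none with DMSO, and 5.28% between idelalisib and none with valemetostat. For tazemetostat against DMSO the shares were 5.14% in WT, 4.69% under idelalisib, 5.12% in AID-KO and 5.53% in Lig4-KO. For valemetostat against DMSO they were 5.78% in WT, 5.60% under idelalisib, 2.99% in AID-KO and 4.89% in Lig4-KO. limma voom, fitted over the 4 loci and all tiles, called 0 of the 47 tests it could fit after Benjamini-Hochberg adjustment, with a lowest adjusted p of 0.249, and 6 had an unadjusted p under 0.05. Over the 12 comparisons together it called 0.129% of all features, and 6.14% had an unadjusted p under 0.05. The 2 groups overlapped in all 48 tests, while 1.42% of tiles had groups that did not overlap. Of 24 contrasts asking whether a compound's effect differed between a background and WT, 0 passed in limma voom and 2 had an unadjusted p under 0.05. Over all features of those contrasts 0.00444% were called and 6.03% had an unadjusted p under 0.05.

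**Figure D2:**
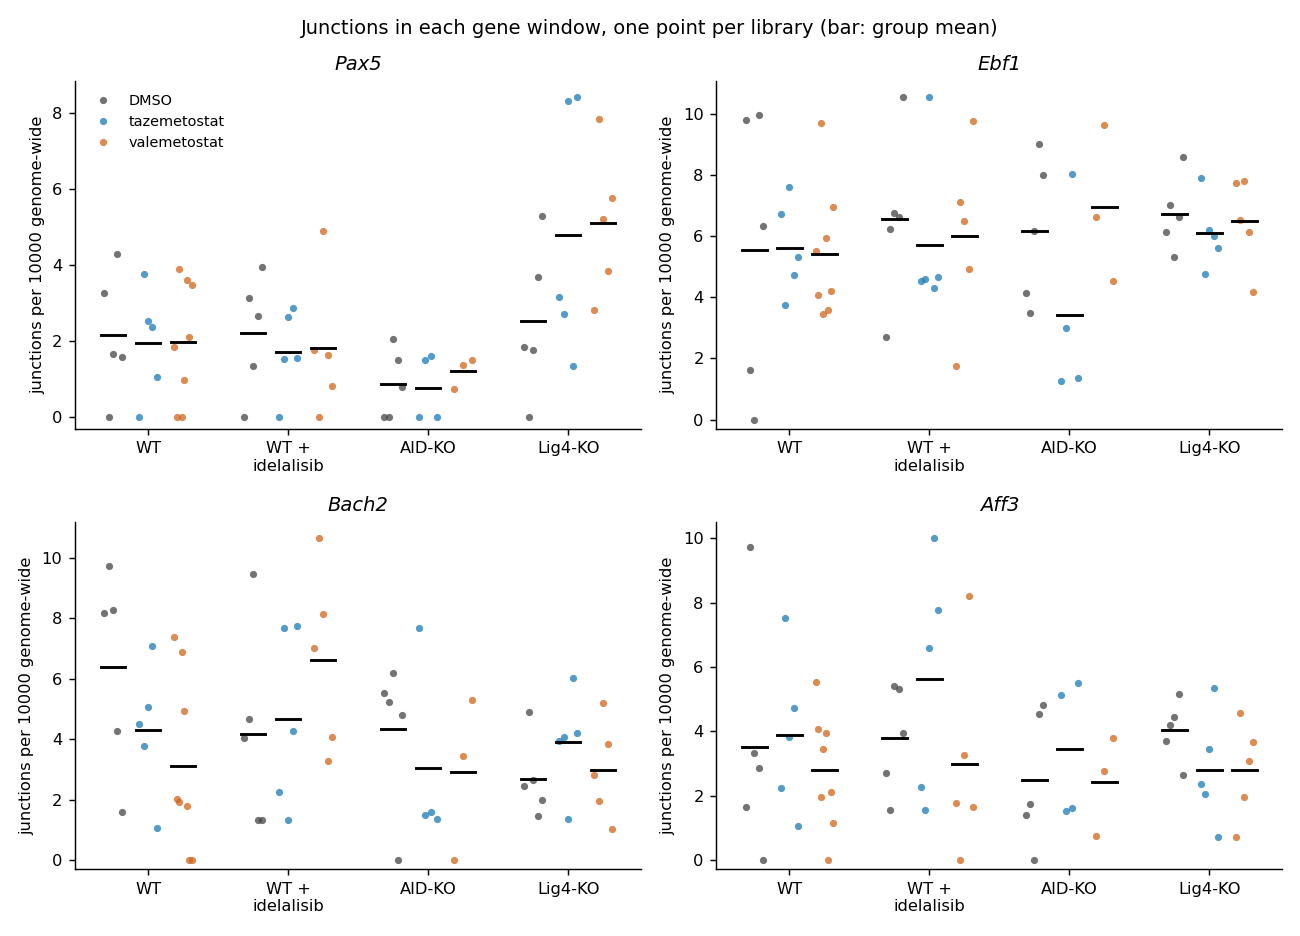
Junctions per 10000 genome-wide junctions (vertical axis) in each library, by background and treatment, for the 4 windows. Bars are group means. Pax5 means range from 0.78 in AID-KO with tazemetostat to 5.09 in Lig4-KO with valemetostat, and all groups compared overlap.

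Pax5 was the only one of the 4 whose whole-window rate passed a test between backgrounds, and it did so only when the 3 treatments were pooled. In WT DMSO the 5 libraries had 3.27, 0.00, 1.65, 4.28 and 1.59 junctions per 10000. In AID-KO DMSO they had 0.00, 0.00, 2.06, 1.51 and 0.80. The highest AID-KO library lay below 2 of the WT libraries and the groups overlapped (0.87 ± 0.91 against 2.16 ± 1.66, SD, n = 5 each, exact permutation p = 0.183). Over all treatments AID-KO had 10 Pax5 junctions in 12 libraries and WT 24 in 18. That is 0.927 ± 0.767 (SD, n = 12) against 2.02 ± 1.47 (SD, n = 18).

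When WT, AID-KO and Lig4-KO libraries of all treatments were compared, with labels permuted within treatment (100000 draws), a setting chosen after the data were seen, the Pax5 rate was lower in AID-KO by 1.09 per 10000 (permutation p = 0.0368) and higher in Lig4-KO by 2.17 (p = 0.0055). The difference was negative in AID-KO with each agent, at -1.28 with DMSO, -1.17 with tazemetostat and -0.78 with valemetostat. Between Lig4-KO and WT it was 0.36 with DMSO, 2.84 with tazemetostat and 3.10 with valemetostat. Of 400 kb tiles, 7.24% passed this test between AID-KO and WT and 8.73% between Lig4-KO and WT, so 1 of 4 loci in each comparison is to be read against those shares. limma voom over all tiles did not call Pax5 in either comparison (log2 fold change -0.81, adjusted p = 0.519 for AID-KO, and 0.66, adjusted p = 0.210 for Lig4-KO). Leaving out any of 9 single libraries took the p of the AID-KO result above 0.05, with values up to 0.0697. They were AID-KO DMSO replicates 1 and 2, AID-KO tazemetostat replicates 1 and 4, AID-KO valemetostat replicate 1, WT DMSO replicates 1 and 4, and WT tazemetostat replicates 2 and 3.

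Within Lig4-KO the mean Pax5 rate was higher with either EZH2 inhibitor than with DMSO, by less than the threshold of the tests. Lig4-KO with DMSO had 1.84, 0.00, 1.77, 3.69 and 5.28 per 10000, a mean of 2.52 ± 2.02 beside the 2.16 of WT with DMSO. With tazemetostat the 5 libraries had 3.16, 2.72, 8.29, 1.34 and 8.41, and with valemetostat 2.82, 7.82, 5.22, 3.84 and 5.75. The means were 4.79 ± 3.33 and 5.09 ± 1.91, and both groups overlapped DMSO. Against DMSO the difference was 2.27 with tazemetostat (exact permutation p = 0.230, limma voom log2 fold change 1.02 ± 0.47 SE, adjusted p = 0.674) and 2.57 with valemetostat (exact permutation p = 0.0794, log2 fold change 1.33 ± 0.44 SE, adjusted p = 0.458). In junctions, 18 with DMSO stand beside 34 with tazemetostat and 40 with valemetostat. The effect of valemetostat in Lig4-KO minus that in WT was 1.42 on the log2 scale (limma voom adjusted p = 0.791), so the difference between the backgrounds was not called. Doses are not in the labels, and the compounds were not tested against each other.

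Ebf1 showed no difference between backgrounds that passed in whole-window rates. Its means over all treatments were 5.52 ± 2.72 in WT (n = 18), 6.11 ± 2.63 in WT with idelalisib (n = 15), 5.45 ± 2.89 in AID-KO (n = 12) and 6.45 ± 1.22 in Lig4-KO (n = 15). Its lowest group mean was 3.43 ± 3.19, in AID-KO with tazemetostat (n = 4), where the libraries had 1.28, 3.01, 8.06 and 1.37. AID-KO with DMSO had 4.14, 3.5, 6.19, 9.04 and 8.0, and the groups overlapped (exact permutation p = 0.183). Between AID-KO and WT over all treatments the difference was -0.01 per 10000 (permutation p = 0.996). In DMSO the ratio of AID-KO to WT rates had a 95% Clopper-Pearson interval from 0.594 to 2.23, which covers counting error only.

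Bach2 had rates of 8.17, 9.75, 8.27, 4.28 and 1.59 in WT DMSO. In Lig4-KO DMSO, its lowest group mean, it had 2.46, 4.91, 2.66, 1.48 and 1.98. WT replicates 1 to 3 exceeded every Lig4-KO library, while WT replicates 4 and 5 lay among them. The means were 6.41 ± 3.37 and 2.70 ± 1.32 (exact permutation p = 0.0794, limma voom log2 fold change -1.13 ± 0.42 SE, adjusted p = 0.249). Leaving out WT DMSO replicate 5 gave an exact permutation p of 0.0238 and a difference of -4.92. Leaving out any other single library left p above 0.05, with values up to 0.127. Removing positions shared by libraries gave a difference of -2.38 (exact permutation p = 0.183). Between Lig4-KO and WT the Bach2 difference was -0.37 with tazemetostat and -0.15 with valemetostat. With valemetostat, idelalisib-treated WT cells had 7.02, 10.7, 8.14, 3.29 and 4.07, against a lowest of 0.00, a median of 1.99 and a highest of 7.37 in the 8 WT libraries without idelalisib. These means of 6.64 ± 3.02 and 3.12 ± 2.91 gave the lowest p of the 48 tests (exact permutation p = 0.0629, limma voom adjusted p = 0.532). Widening the window by 50 kb on both sides gave an exact permutation p of 0.0365, and leaving out any of 4 libraries gave p down to 0.0316. Those 4 were idelalisib with valemetostat replicates 4 and 5 and WT valemetostat replicates 1 and 4.

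Aff3 was the least dense locus in WT and showed no difference that passed in whole-window rates. Its means over all treatments were 3.29 ± 2.50 in WT (n = 18), 4.13 ± 2.96 with idelalisib (n = 15), 2.79 ± 1.88 in AID-KO (n = 12) and 3.20 ± 1.46 in Lig4-KO (n = 15). Its highest group mean was 5.64 ± 3.63, in idelalisib with tazemetostat, where the libraries had 2.27, 1.54, 6.60, 10.02 and 7.76. Its values there overlapped those of idelalisib with DMSO (3.79 ± 1.67, exact permutation p = 0.333). For the windows of Ebf1, Bach2 and Aff3 compared over all treatments, the lowest permutation p between AID-KO or Lig4-KO and WT was 0.134. For idelalisib against none over all treatments, whole windows and 5′ ends gave permutation p from 0.168 to 0.872.

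Over all treatments, a larger share of the Pax5, Ebf1 and Aff3 junctions lay near the gene's 5′ side in Lig4-KO than in WT. For Bach2 a larger share lay in the middle of the window. With DMSO alone the Pax5 share was no larger in Lig4-KO than in WT, as given below. Each window was divided into 10 equal segments, numbered from the gene's 5′ side, with the gene's direction from the RefSeq table and distances from mm9. In Lig4-KO, 33 of 92 Pax5 junctions (35.9%) lay in segment 1, and 35 of 140 Ebf1 junctions (25%). In WT segment 1 held 4 of 24 Pax5 junctions and 5 of 66 Ebf1 junctions. WT with idelalisib lay between these, with 5 of 20 Pax5 junctions (25%) and 13 of 69 Ebf1 junctions (18.8%) in segment 1. In AID-KO segment 1 held 0 of 10 Pax5 junctions and 6 of 62 Ebf1 junctions. Bach2 had its peak in Lig4-KO in the middle of the window, with 37 of 69 junctions in segments 5 and 6. Those segments held 12 of 51 in WT, 15 of 53 in WT with idelalisib and 8 of 37 in AID-KO. Segments 5 and 6 are those with the highest Lig4-KO counts (15 and 22). Setting the other backgrounds beside Lig4-KO there therefore favours Lig4-KO, and no test was made. The highest segment was 4 in AID-KO (9 junctions) and 10 in WT and WT with idelalisib (11 and 9). The Bach2 promoter in the RefSeq table starts near the middle of its gene, as given above, and a link was not tested. Aff3 had 13 of 70 Lig4-KO junctions in segment 1, against 3 of 38 in WT and 1 of 31 in AID-KO. WT with idelalisib had 5 of 44. Segment 3 was the highest of Aff3 in Lig4-KO, WT and AID-KO alike, with 14, 11 and 9 junctions.

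**Figure D3:**
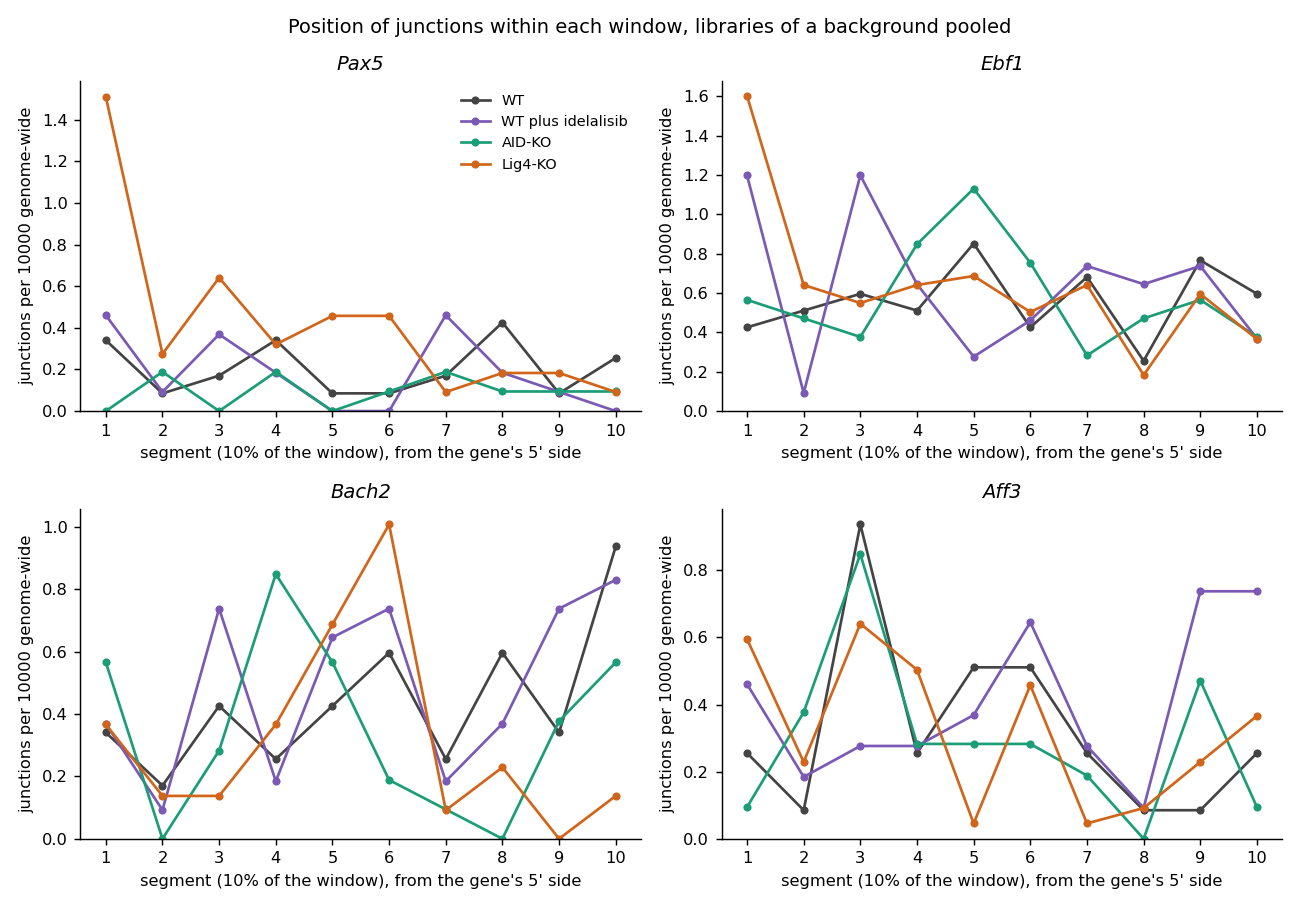
Junctions per 10000 genome-wide junctions (vertical axis) in each of 10 segments of the window, numbered from the gene's 5′ side (horizontal axis), with the libraries of a background pooled. In Lig4-KO segment 1 is the highest in Pax5 and Ebf1, and segment 6 in Bach2.

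Segments 1 and 2 together, called the 5′ end below, were tested by library. In Lig4-KO over all treatments the 5′ end held 39 of 92 Pax5 junctions (42.4%, 95% Clopper-Pearson interval 32.1% to 53.1%), against 5 of 24 in WT (20.8%, 7.13% to 42.2%) and 2 of 10 in AID-KO. It held 49 of 140 Ebf1 junctions (35%, 27.1% to 43.5%), against 11 of 66 in WT (16.7%, 8.62% to 27.9%) and 11 of 62 in AID-KO. For Aff3 it held 18 of 70 in Lig4-KO (25.7%, 16.0% to 37.6%) and 4 of 38 in WT (10.5%, 2.94% to 24.8%). For Bach2 it held 11 of 69 and 6 of 51. WT with idelalisib had 6 of 20 Pax5 junctions there (30%, 11.9% to 54.3%) and 14 of 69 Ebf1 junctions (20.3%, 11.6% to 31.7%). For Aff3 and Bach2 these cells had 7 of 44 and 5 of 53. With DMSO alone the 5′ end held 5 of 18 Pax5 junctions in Lig4-KO and 2 of 7 in WT. In Lig4-KO it held 17 of 34 with tazemetostat and 17 of 40 with valemetostat, against 1 of 7 and 2 of 10 in WT. All intervals cover counting error only.

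The rate at the 5′ end was higher in Lig4-KO than in WT over all treatments for Pax5 (1.78 ± 1.46, n = 15, against 0.395 ± 0.679, n = 18, permutation p = 8.8e-04), for Ebf1 (2.23 ± 0.96 against 0.927 ± 1.31, p = 0.00482) and for Aff3 (0.821 ± 0.815 against 0.305 ± 0.618, p = 0.0489). For Pax5 the difference was 0.09 with DMSO, 2.04 with tazemetostat and 1.94 with valemetostat. Bach2 did not pass (0.505 ± 0.614 against 0.502 ± 0.754, permutation p = 0.860). Its promoter in the RefSeq table starts 51.5% of the way along the gene, which segments 1 and 2 do not reach. The Bach2 test therefore does not examine the region of that start. Of 100 kb tiles, 4.84% passed with a higher rate in Lig4-KO. All 15 Lig4-KO libraries had a junction at the 5′ end of Ebf1, and 12 at those of Pax5 and Aff3, against 7, 5 and 4 of the 18 WT libraries. Lig4-KO libraries were deeper, and after 1 random thinning of every library to 4450 genome-wide junctions the Pax5 difference was 0.717 (permutation p = 0.20), the Aff3 difference was -0.21 (p = 0.612), and Ebf1 still passed. Without positions shared by libraries the Ebf1 difference fell from 1.32 to 0.715 (permutation p = 0.0342), and in segments 1 to 5 its p was 0.114. With windows widened by 50 kb the Pax5 difference fell from 1.40 to 0.899 (permutation p = 0.0454). Leaving out any of 23 of the 33 libraries took the p of Aff3 above 0.05, with values up to 0.0993. The same comparison between AID-KO and WT gave no p under 0.244.

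Within DMSO alone, Aff3 had 0 junctions at its 5′ end in all 5 WT libraries, where 3 junctions in the deepest would be 4.28 per 10000, and 0.61, 0.70, 0.89, 1.48 and 0.66 per 10000 in Lig4-KO. The groups did not overlap and the exact permutation p was 0.00794, the smallest that 5 against 5 allows. Of 100 kb tiles, 3.35% passed in this direction. These Lig4-KO rates rest on 6 junctions in all and lie under what 3 junctions would give in a WT library, so no fold is given. After thinning to equal depth the Aff3 difference was 0 (exact permutation p = 1), and in segments 1 to 5 it was 0.28 (p = 0.857). Ebf1 had 3.27, 0.00, 0.00, 0.00 and 0.00 in WT and 3.07, 2.10, 0.89, 2.95 and 4.62 in Lig4-KO, that is 2 junctions against 20 (exact permutation p = 0.0714). Leaving out WT DMSO replicate 1 or Lig4-KO DMSO replicate 3 gave exact permutation p down to 0.0159. Segment 1 alone and thinning each gave an exact permutation p of 0.00794 for Ebf1. In the other direction, the Ebf1 difference of 2.08 fell to 0.437 without positions shared by libraries (exact permutation p = 0.603), to 1.39 with windows widened by 50 kb (p = 0.159) and to 1.17 in segments 1 to 5 (p = 0.468). Pax5 had a rate of 0.707 ± 1.02 in Lig4-KO and 0.616 ± 0.847 in WT, which did not differ past the threshold (exact permutation p = 1).

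For the 5′ end of Pax5 in Lig4-KO, DMSO libraries had 0.00, 0.00, 0.00, 2.22 and 1.32, tazemetostat libraries 2.37, 0.68, 3.46, 0.67 and 4.91, and valemetostat libraries 1.41, 3.26, 3.26, 1.54 and 1.57. Each treated library held at least 1 junction there, whereas 3 of the 5 DMSO libraries held 0. The differences from DMSO were 1.71 with tazemetostat (exact permutation p = 0.0873) and 1.5 with valemetostat (p = 0.0556), neither past the threshold. With valemetostat p was 0.0159 in segment 1 alone and 0.0317 in segments 1 to 5, whereas thinning gave a difference of 0.899 (exact permutation p = 0.722) and leaving out positions shared by libraries 1.12 (p = 0.127). With tazemetostat the difference ran from 0.422 to 2.52 over 8 other settings, and none passed. Of 100 kb tiles, 1.5% passed upward with valemetostat and 1.73% with tazemetostat. Leaving out Lig4-KO DMSO replicate 4 gave an exact permutation p of 0.00794. With tazemetostat, leaving out treated replicate 2 or 4 gave p down to 0.0476. Ebf1, Bach2 and Aff3 gave no p under 0.167 with either agent.

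**Figure D4:**
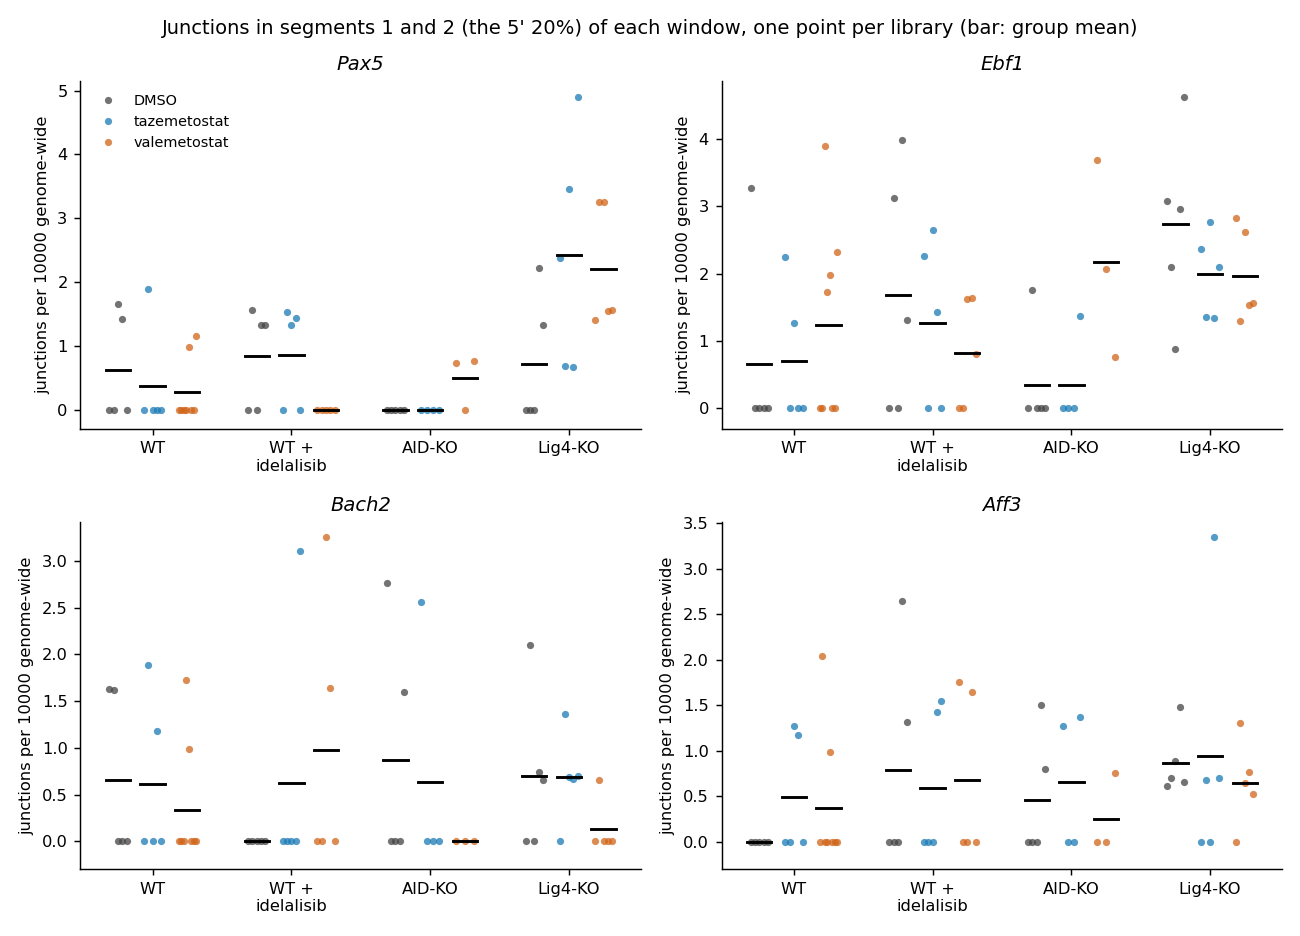
Junctions per 10000 genome-wide junctions (vertical axis) in segments 1 and 2 of each window, the gene's 5′ end, per library, by background and treatment. For Bach2 these segments do not reach the promoter in the RefSeq table. Bars are group means. All 15 Lig4-KO libraries have a junction there in Ebf1, and in Pax5 the Lig4-KO means are 0.71 with DMSO, 2.42 with tazemetostat and 2.21 with valemetostat.

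The densest 5 kb stretches of Pax5 and Bach2 held mostly Lig4-KO junctions, few from WT and 0 from AID-KO. In Pax5 it was chr4:44720000-44724999, which held 34 of the 146 junctions at 32 different positions in 19 libraries, against 11 in the next densest stretch. Of these 34, 26 came from Lig4-KO (3 with DMSO, 9 with tazemetostat, 14 with valemetostat), 4 from WT, 4 from WT with idelalisib and 0 from AID-KO. In Bach2 it was chr4:32510000-32514999, with 17 junctions of which 12 came from Lig4-KO (1 with DMSO, 6 with tazemetostat, 5 with valemetostat). Of the rest, 4 came from WT with idelalisib, 1 from WT and 0 from AID-KO, so AID-KO and WT hardly differed there. AID-KO held 106130 genome-wide junctions, fewer than the 218465 of Lig4-KO, and these stretches were chosen for their counts, so no test was made.

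The densest stretches of Ebf1 and Aff3 held junctions of all 4 backgrounds. In Ebf1, chr11:44600000-44604999, 44.5% of the way along the window, held 20 junctions in 19 libraries, against 18 in the next densest stretch, of which 8 came from AID-KO, 7 from WT and 4 from Lig4-KO, and 18 were on the plus strand. In Aff3, chr1:38590000-38594999 held 16 junctions at 10 positions in 14 libraries, of which 4 came from AID-KO, and 0 were on the plus strand. Over whole windows the strands were closer to balance than in these stretches. In Lig4-KO they ran from 37.9% plus for Ebf1 to 62.9% plus for Aff3 (intervals 29.8% to 46.4% and 50.5% to 74.1%). In the other backgrounds they ran from 39.6% plus for Bach2 to 70% plus for Pax5, both in WT with idelalisib (intervals 26.5% to 54.0% and 45.7% to 88.1%).

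Junctions of different libraries shared positions more often in Ebf1 than in Pax5, a difference that was not tested. At positions found in more than 1 library lay 58 of the 140 Ebf1 junctions of Lig4-KO, 21 of 66 of WT and 22 of 62 of AID-KO, against 8 of 92, 2 of 24 and 3 of 10 for Pax5. Pax5 had 136 distinct positions for 146 junctions, Bach2 186 for 210 and Aff3 157 for 183. Ebf1 had 265 for 337, with 43 positions found in 2 or more libraries and 1 position in 10 libraries. Within a library no junction was listed more than 1 time in these windows. Within groups the chi-square of counts per degree of freedom was 0.856 for Ebf1, 1.12 for Pax5, 1.23 for Aff3 and 1.43 for Bach2. Counting error alone would give about 1, and the departure from it was not tested.

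Across the 12 group means the 4 loci were weakly correlated. Pearson's r between pairs of them ran from -0.15 to 0.35, over groups that differ in depth and share sequencing runs. Of 3573 tiles with a summed tally at least 50% of that of Pax5, the 3 most like it were chr13:23600000-23999999 (r = 0.957), chr12:56400000-56799999 (r = 0.957) and chr2:126800000-127199999 (r = 0.956). The chr12 tile had a mean of 3.74 junctions per 10000 in AID-KO with DMSO, 9.55 in WT with DMSO, 26.5 in Lig4-KO with DMSO and 42.7 in Lig4-KO with valemetostat. Its order of backgrounds with DMSO is that of Pax5, and its rate was higher than that of Pax5 in each of the 12 groups. For Bach2 the most alike tile reached r = 0.914, for Aff3 0.852 and for Ebf1 0.710.

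Of 8 other B-cell transcription factor genes (Ikzf1, Ikzf3, Foxo1, Bcl6, Bcl11a, Ets1, Mef2c and Runx1, each with 10 kb on both sides), 8 of 96 exact tests passed, against 0 of 48 for the 4 loci. Tiles passed at 2.99% to 7.35%, as above. Mean density over all libraries ran from 0.642 per 100 kb in Ets1 to 2.02 in Ikzf3, an Ikaros family member, with a median of 0.911. Beside these, it was 1.15 in Pax5, 1.44 in Ebf1, 1.08 in Bach2 and 0.675 in Aff3. Bcl11a, which early lymphoid development needs, was higher in Lig4-KO than in WT with DMSO (4.06 ± 1.49 against 0.941 ± 0.863 junctions per 10000, n = 5 each, exact permutation p = 0.00794). Mef2c, a factor of B-cell proliferation, was higher too (2.37 ± 0.55 against 0.285 ± 0.638, exact permutation p = 0.00794). The means of both genes lie under the 4.28 per 10000 that 3 junctions give in the deepest WT DMSO library, so no fold is given. Lig4-KO libraries were deeper, and no thinned result is given for these genes. Ikzf1 passed in 3 comparisons, with a lower rate in WT with tazemetostat than with DMSO, a lower rate under idelalisib with valemetostat than with DMSO, and a higher rate in Lig4-KO with tazemetostat than with DMSO. Ikzf3 was lower in WT with valemetostat than with DMSO. That comparison, the one of Ikzf1 under idelalisib with valemetostat, and those of Bcl11a and Mef2c set libraries of different runs side by side. Foxo1 was lower in Lig4-KO with valemetostat than with DMSO, and Ets1 lower under idelalisib with valemetostat than in WT with valemetostat.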

How the data were processed

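Positions of LAM-HTGTS junctions were read from 60 lists deposited by the authors, with 1 line per junction, in the mm9 build per the submitters' processing notes. The aligner and junction caller used were not given in the sources used here, and the meaning of the strand column and of the lists' score, which was not used, is not stated. Sequencing runs were read from read names. Immunoglobulin locus bounds and the coordinates of the 8 further genes were written from knowledge. These 8 genes stood on the same chromosome in the RefSeq table of a later build, within 196 kb of their place there.

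Junctions per window and per 400 kb tile were tallied with Python 3.11.15 and numpy 2.4.6, divided by each library's genome-wide junctions, and compared by two-sided exact permutation tests. limma 3.58.1 (voom) in R 4.3.3 was fitted over the 4 loci and tiles with a mean tally of at least 1, with Benjamini-Hochberg adjustment, and its script was tested on simulated data. Adjusted p-values in the text are from limma. Tiles of 100 kb, with a mean tally of at least 0.2, stand beside the tests of the 5′ end (segments 1 and 2 of 10). Permutation tests over all treatments used 2000 draws for tiles and 10000 for alternatives.

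The members and lists were chosen with earlier results of these data known. The 4 loci are always named, the tiles most like them by Pearson's r over 12 group means, and the 8 further genes where they passed or were highest or lowest. Comparisons over all treatments, the 5′ end with the EZH2 inhibitors, the 5 kb stretches and the removal of shared positions were added after the data were seen. Same-numbered libraries correlated with r between -0.066 and 0.042 over tiles, so the numbers were not taken as pairs.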

Additional observations from a re-analysis of the deposited data

Results flagged for a closer look

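Of 44 sets of 4 to 8 libraries of one group and locus, 3 held a library far from the others by Dixon's test, and chance alone marks about 1 set in 20. Ebf1 in WT plus idelalisib tazemetostat replicate 3 stood at 10.6 junctions per 10000 (8 junctions), with the nearest library at 4.66. Bach2 in AID-KO DMSO replicate 4 stood at 0 junctions, with the nearest library at 4.80 per 10000. Bach2 in AID-KO tazemetostat replicate 1 stood at 7.67 (6 junctions), with the nearest at 1.61.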

How the results depend on the processing

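No locus was called by limma in any comparison under any setting, including a replicate block (0 loci called), limma trend, 200 kb and 1 Mb tiles, other filters and all groups in one fit. In the permutation tests 376 values kept their direction and side of the threshold under alternative settings other than leaving out a library, and 25 did not. The cause was not tested in any of them. With windows widened by 50 kb, 1 locus (Bach2, 4.26, exact permutation p = 0.0365) passed between idelalisib with valemetostat and WT with valemetostat in place of 0, and 0 in place of 1 passed between AID-KO and WT over all treatments (Pax5 -0.80, p = 0.198). Thinning, 1 random draw that leaves few junctions, made 2 windows pass in place of 1 between Lig4-KO and WT over all treatments. At the 5′ ends in that comparison thinning left 1 of 3 (Aff3 -0.21), and segments 1 to 5 in place of 1 and 2 left 1 of 3 (Aff3 -0.10). Between Lig4-KO and WT with DMSO 2 passed in segment 1 alone and 0 in segments 1 to 5, in place of 1. With valemetostat in Lig4-KO 1 passed in either, in place of 0. Aff3 over all treatments missed the threshold under each of 6 of its 8 settings.

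Leaving out single libraries gave 0 to 1 windows passed between Lig4-KO and WT with DMSO, between idelalisib with valemetostat and WT with valemetostat, between WT valemetostat and DMSO, between AID-KO tazemetostat and DMSO, between Lig4-KO tazemetostat or valemetostat and DMSO, and between AID-KO and WT over all treatments. For 5′ ends it gave 1 to 2 between Lig4-KO and WT with DMSO, 2 to 3 over all treatments, and 0 to 1 for either inhibitor in Lig4-KO. The Pax5 excess of Lig4-KO over all treatments kept p from 0.0014 to 0.0144 with each of 33 libraries left out. Depth also limits what can be read: libraries held 0 to 14 junctions per locus, and 1 junction is worth 0.523 to 2.25 per 10000.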
